A study of Mus musculus with 24 samples.

Results

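Spi1, Cebpa, Cebpb, Maf, Fli1, Adgre1, Itgam and Mertk were followed as lineage factors and markers of macrophages. They were represented by all probe sets whose annotation named only 1 of these symbols, 15 of the 45033 probe sets with values. Maf had 6 probe sets, Cebpb and Fli1 had 2 each, and the other 5 genes had 1 each; where a gene had several, the one with the highest mean over all arrays stood for the gene. The 8 genes were among 18193 with a probe set of their own.

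Macrophages grown from the bone marrow of male mice gave the RNA. All mice were homozygous for the Il10tm1Cgn allele, which disrupts the gene of the anti-inflammatory cytokine interleukin-10, so every group lacked Il10. The strains were B6 (C57BL/6J-Il10tm1Cgn), described as resistant to colitis, C3Bir (C3H/HeJBir-Il10tm1Cgn), described as susceptible, and 2 congenic strains made in opposite directions. BC-R3 (B6.Cg-Il10tm1Cgn Cdcs1) carried the C3Bir version of Cdcs1, a colitis locus on chromosome 3, on B6 genetics. CB-R1 (C3Bir.Cg-Il10tm1Cgn Cdcs1), described as resistant, carried a long B6 segment of chromosome 3 that holds Cdcs1 on C3Bir genetics. Cells were cultured for 6 days in serum-containing medium on polystyrene, and flagellin groups received 1 µg/mL of Cbir flagellin, a flagellin of a commensal gut bacterium, for 4 h on the last day. Marrow came from 3 mice per genotype, 3 wells were pooled for each RNA, and each of the 8 groups had 3 arrays. The ages of the mice and any growth factor in the medium are not given in the sources used here, and congenic segments carry linked genes besides the locus they are named for.

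Macrophages arise from myeloid progenitors under a small set of transcription factors. Spi1 encodes an ETS-family factor that opens myeloid enhancers, Cebpa and Cebpb encode CCAAT/enhancer-binding proteins that act with it, Maf encodes a leucine-zipper factor of mature macrophages, and Fli1 is a second ETS factor of blood lineages. Adgre1 and Itgam encode surface proteins by which macrophages are recognised, an adhesion G protein-coupled receptor and an integrin alpha chain, and Mertk encodes a receptor tyrosine kinase through which macrophages take up dying cells. Cebpb is known for its induction by inflammatory signals, and Itgam is also carried by neutrophils.

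Promoter sequence was available for 4 of the 8 genes, Cebpa, Cebpb, Itgam and Mertk, in the RefSeq promoter table (GRCm38.p6). The 250 bases before the annotated start were searched on both strands for GAGGAA, a core of binding sites of the Spi1 product, TTGCNNAA, a C/EBP core, TGANTCA, the AP-1 site, and TGCTGA, a core of Maf sites. Itgam held GAGGAA at 2 places, on the plus strand starting 84 bases before the start and on the minus strand nearer to it. At the second place the plus strand reads the reverse complement, TTCCTC, from 15 bases before the start. The windows of Cebpa, Cebpb and Mertk held none of the 4 motifs, and Itgam none of the other 3. GAGGAA occurs in 23.3% of 32851 windows of this length, TTGCNNAA in 9.56%, TGANTCA in 6.75% and TGCTGA in 16.1%, so a match describes the letters and not a bound site. Itgam is printed for its matches, and Cebpa as the member with the clearest division between arrays, without a match. Capitals mark GAGGAA or its reverse complement, and both windows lie on the plus strand.
Cebpa, chr7:35119043-35119292: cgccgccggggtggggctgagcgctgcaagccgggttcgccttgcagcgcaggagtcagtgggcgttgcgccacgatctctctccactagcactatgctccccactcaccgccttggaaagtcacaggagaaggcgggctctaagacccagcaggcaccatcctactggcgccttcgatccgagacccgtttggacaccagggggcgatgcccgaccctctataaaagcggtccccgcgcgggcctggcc
Itgam, chr7:128062390-128062639: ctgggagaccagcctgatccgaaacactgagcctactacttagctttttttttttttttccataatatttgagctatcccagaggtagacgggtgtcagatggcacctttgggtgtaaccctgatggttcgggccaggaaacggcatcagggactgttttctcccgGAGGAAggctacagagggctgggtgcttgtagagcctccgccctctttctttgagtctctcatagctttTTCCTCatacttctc

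Array medians lay between 6.55 and 6.64, and arrays of the same group correlated at 0.987 to 0.998 over all probe sets. Some unstimulated arrays stood apart. Averaged over 19 inflammatory cytokine genes, B6 unstimulated arrays 2 and 3 read 10.34 and 10.40 on the log2 scale. Arrays 2 and 3 of unstimulated C3Bir read 9.11 and 9.0. The other 8 unstimulated arrays lay between 7.44 and 8.53, and the 12 flagellin arrays between 7.63 and 8.30. Array 1 of unstimulated B6, at 8.43, and of unstimulated BC-R3, at 8.53, also lay above every flagellin array. The arrays with the highest cytokine level therefore carried the unstimulated label. Every direction below follows the labels as deposited, and whether labels had been exchanged was not tested. Unstimulated arrays 2 and 3 of B6 and C3Bir are called the 4 high arrays below, and results that rest on them are given with and without them. Without them the unstimulated groups of B6 and C3Bir each hold 1 array, their array 1, whose spread limma takes from the other groups. The B6 control left in that setting is thus itself above the flagellin arrays in cytokine mean. Over 18 interferon-stimulated genes it read 11.56, the highest of the 22 arrays other than B6 unstimulated arrays 2 and 3. Fewer arrays alone can end a call in that setting, so the changes are given with it.

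Macrophage RNA in the cultures was described with 8 markers, which include Adgre1, Itgam and Mertk themselves. Their mean was 11.99 to 12.58 on the 24 arrays and 0 of the 8 lay below the lower quartile of the arrays. The neutrophil, B cell and megakaryocyte lists also had 0 measured genes below it, so this bar does not tell cell types apart. Most genes of a neutrophil marker list also gave high values. The mean of 8 measured neutrophil markers, among them S100a8, Ngp and Mpo, was 10.53 to 12.17, and it was highest in CB-R1, at 11.93 to 12.17. Cxcr2, of the same list, had a mean of 6.77, just above the array medians of 6.55 to 6.64, and Ly6g was not measured. Whether neutrophils were in the cultures was not tested. Dendritic cell, B cell, T and NK cell, mast cell, erythroid and endothelial lists had array means of 5.47 to 6.71, osteoclast markers 6.79 to 7.66, stromal markers 6.96 to 8.81 and megakaryocyte markers 8.55 to 9.20. Xcr1, Cd3g, Fcer1a, Ms4a2, Hba-a1, Tek, Thy1 and Calcr, genes of several of these lists, had means below 5.37, the median of the lower quartiles of the arrays. The highest means in the same lists were those of Flt3 (7.21), Cd3e (7.81), Kit (6.34), Epor (8.09), Kdr (8.29), Col1a2 (10.59) and Acp5 (9.89). Whether cells of these types were in the cultures was not tested. In RNA of a mixed culture, fewer cells of a type and less RNA per cell cannot be told apart.

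**Figure D1:**
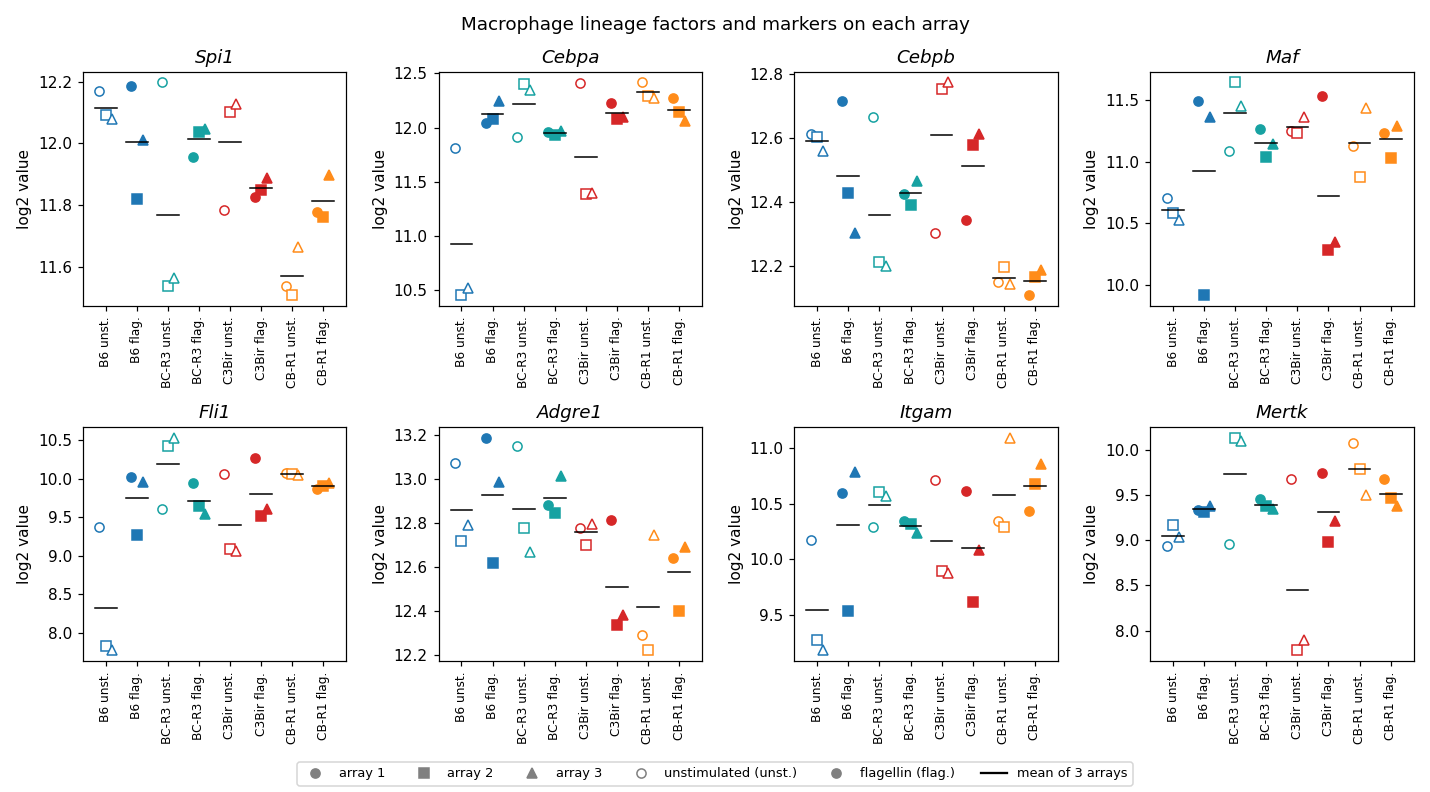
Log2 value of the main probe set of each of the 8 genes (vertical axes, with a scale of their own per gene) on the 3 arrays of each strain and condition (horizontal axes); symbols give the array number, open symbols unstimulated and filled symbols flagellin, and black lines the mean of 3 arrays. Cebpa and Fli1 are lowest on B6 unstimulated arrays 2 and 3, and Mertk is lowest on C3Bir unstimulated arrays 2 and 3.

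All 15 probe sets gave signal above the lower quartile of the arrays, which was 5.29 to 5.42. The genes differed in how far they varied. Over the 24 arrays Cebpb spanned 0.66 and Spi1 0.69 on the log2 scale, and Adgre1 spanned 0.96. Maf spanned 1.72, Itgam 1.91, Cebpa 1.96, Mertk 2.36 and Fli1 2.76. The span of Fli1 was larger than that of 99.0% of all probe sets and the span of Cebpb larger than that of 65.8%.

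Among the transcription factors, Cebpa, whose protein drives progenitors into the granulocyte and macrophage lineages, had the clearest division between arrays. B6 unstimulated arrays gave 11.81, 10.45 and 10.52, and B6 flagellin arrays 12.05, 12.08 and 12.25. C3Bir unstimulated arrays gave 12.42, 11.39 and 11.40, and C3Bir flagellin arrays 12.23, 12.08 and 12.10. The B6 conditions did not overlap, whereas in C3Bir array 1 of the unstimulated group lay above every flagellin array. BC-R3 gave 11.91, 12.40 and 12.35 unstimulated and 11.96, 11.93 and 11.97 with flagellin, and CB-R1 gave 12.42, 12.30 and 12.27 against 12.27, 12.14 and 12.06. In BC-R3 the lowest and the highest of the 6 values were both unstimulated, and in CB-R1 the unstimulated values lay at or just above the flagellin values. Apart from the 4 high arrays, Cebpa stayed within 11.81 to 12.42.

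Fli1, an ETS factor with roles from blood stem cells to megakaryocytes, followed the same division. B6 unstimulated arrays gave 9.37, 7.82 and 7.77, and B6 flagellin arrays 10.03, 9.26 and 9.96. C3Bir gave 10.06, 9.08 and 9.07 unstimulated and 10.27, 9.51 and 9.61 with flagellin. The conditions overlapped in both strains, because array 1 of each unstimulated group was higher than its other arrays. BC-R3 gave 9.61, 10.42 and 10.53 unstimulated against 9.94, 9.64 and 9.54, and CB-R1 gave 10.08, 10.07 and 10.05 against 9.87, 9.90 and 9.94. CB-R1 was the strain in which the 3 unstimulated arrays lay closest together. The second Fli1 probe set correlated with the first at 0.966 over the 24 arrays.

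Spi1, the ETS factor without which macrophages do not form, moved within narrow limits. B6 arrays gave 12.17, 12.09 and 12.08 unstimulated and 12.19, 11.82 and 12.01 with flagellin, and C3Bir arrays 11.78, 12.10 and 12.13 against 11.83, 11.85 and 11.89. BC-R3 gave 12.20, 11.54 and 11.57 against 11.96, 12.04 and 12.05, and CB-R1 11.54, 11.51 and 11.67 against 11.78, 11.76 and 11.90. The lowest values were those of CB-R1 unstimulated and of BC-R3 unstimulated arrays 2 and 3. Array 1 of BC-R3 unstimulated was the highest of all 24.

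Cebpb, the C/EBP factor tied to inflammatory gene induction, ranged from 12.11 to 12.77, and its second probe set correlated with the first at 0.952. CB-R1 held the low end, with 12.15, 12.20 and 12.15 unstimulated and 12.11, 12.17 and 12.19 with flagellin. C3Bir unstimulated arrays 2 and 3 held the high end, at 12.75 and 12.77, while array 1 of that group gave 12.30. By the main probe set the 6 CB-R1 arrays lay below the 6 C3Bir arrays. By the second the strains overlapped, with C3Bir unstimulated array 1 at 11.11 and CB-R1 arrays at 11.01 to 11.17. No share of all probe sets with such a separation is given here.

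Maf, a factor of the mature, self-maintaining macrophage, was low on the 3 unstimulated B6 arrays and lowest on single flagellin arrays. Its main probe set gave 10.70, 10.59 and 10.53 on B6 unstimulated arrays and 11.49, 9.92 and 11.36 on B6 flagellin arrays. C3Bir gave 11.25, 11.24 and 11.37 unstimulated and 11.53, 10.28 and 10.35 with flagellin. The 3 lowest values of the 24 were thus B6 flagellin array 2 and C3Bir flagellin arrays 2 and 3, and none of these was one of the 4 high arrays. BC-R3 gave 11.09 to 11.64 and CB-R1 10.88 to 11.44 over both conditions. The 6 Maf probe sets correlated pairwise at 0.386 to 0.958. All 6 lay below their own means on those 3 flagellin arrays, and also on B6 unstimulated arrays 2 and 3, which are high arrays. By the sixth probe set B6 flagellin array 2, at 6.79, lay above the B6 unstimulated arrays, at 6.46 to 6.67.

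**Figure D2:**
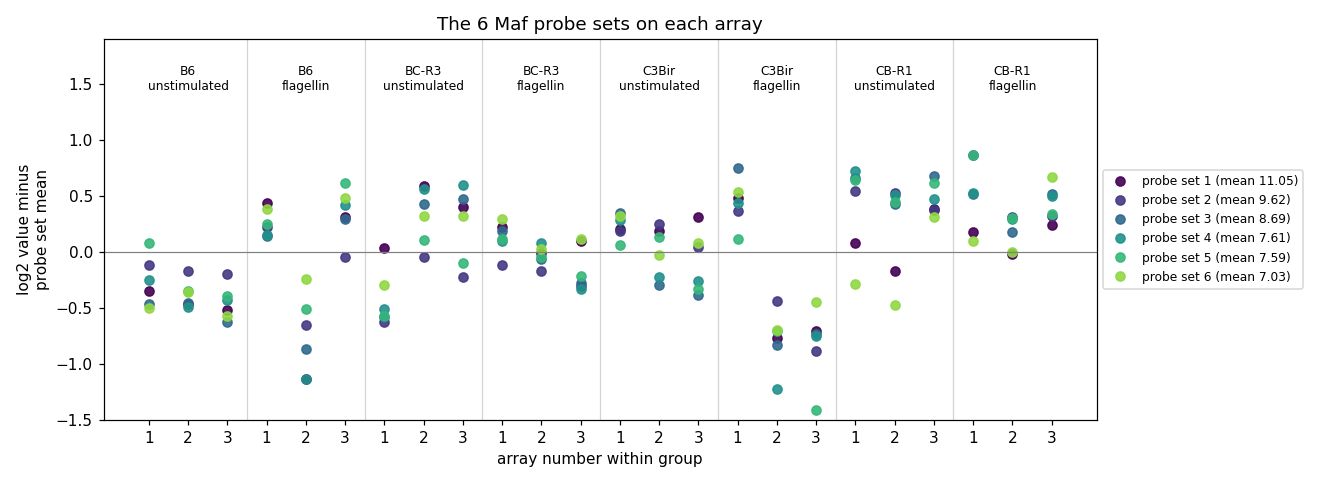
Log2 value minus the probe set's own mean over 24 arrays (vertical axis) for the 6 Maf probe sets on each array (horizontal axis, array number within group). All 6 probe sets lie below 0 on B6 flagellin array 2, on C3Bir flagellin arrays 2 and 3 and on B6 unstimulated arrays 2 and 3.

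Of the surface markers, Itgam, the alpha chain of the complement receptor integrin, gave 10.18, 9.27 and 9.18 on B6 unstimulated arrays and 10.60, 9.54 and 10.78 on B6 flagellin arrays. C3Bir gave 10.71, 9.90 and 9.88 unstimulated and 10.62, 9.62 and 10.08 with flagellin. Values of the conditions overlapped in both strains, with array 1 the highest unstimulated array in each. BC-R3 ranged from 10.24 to 10.61 and CB-R1 from 10.29 to 11.09. The CB-R1 arrays were also those with the highest neutrophil marker mean, and the part of neutrophil RNA in the Itgam level was not tested.

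Mertk, the receptor that binds bridging proteins on dying cells, separated the strains in another way. It gave 8.94, 9.18 and 9.04 on B6 unstimulated arrays and 9.34, 9.31 and 9.39 on B6 flagellin arrays. C3Bir gave 9.68, 7.78 and 7.89 unstimulated and 9.75, 8.98 and 9.21 with flagellin. C3Bir unstimulated arrays 2 and 3 were far below every other array, whereas the B6 arrays of high cytokine level were near the rest of their group. BC-R3 gave 8.96, 10.14 and 10.10 unstimulated against 9.46, 9.39 and 9.35, and CB-R1 gave 10.09, 9.80 and 9.51 against 9.68, 9.48 and 9.38.

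Adgre1, a receptor that marks mature mouse macrophages, gave 13.07, 12.72 and 12.79 on B6 unstimulated arrays and 13.19, 12.62 and 12.98 on B6 flagellin arrays. BC-R3 gave 13.15, 12.78 and 12.67 against 12.88, 12.85 and 13.02. On the C3Bir background, C3Bir gave 12.78, 12.70 and 12.80 against 12.81, 12.34 and 12.38, and CB-R1 gave 12.29, 12.22 and 12.74 against 12.64, 12.40 and 12.69. The B6-background arrays reached higher values, and the ranges of the backgrounds overlapped, 12.62 to 13.19 against 12.22 to 12.81.

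Ordered by mean, the 8 groups formed 7 neighbouring steps for each gene. Few steps were larger than the spread. Cebpa descended from CB-R1 unstimulated at 12.33 ± 0.08 to C3Bir unstimulated at 11.73 ± 0.59 and B6 unstimulated at 10.93 ± 0.77 (mean ± SD, n = 3), and 2 of its 7 steps exceeded the larger SD of the neighbours. Fli1 descended from BC-R3 unstimulated at 10.19 ± 0.50 to B6 unstimulated at 8.32 ± 0.91, again with 2 such steps. Spi1, Adgre1 and Itgam each had 1 such step, and Cebpb, Maf and Mertk had 0. B6 unstimulated was the lowest group for Cebpa, Maf, Fli1 and Itgam and the highest for Spi1.

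The comparison of flagellin with no stimulation asked whether lineage genes moved within 4 h. In B6, Cebpa was 2.29-fold higher on flagellin arrays, a change of 1.19 ± 0.27 on the log2 scale (± SE, n = 3 per group, adjusted p = 0.00729). Fli1 was 2.69-fold higher by its main probe set, 1.43 ± 0.35 (adjusted p = 0.0111), and 1.15 ± 0.29 by its second (adjusted p = 0.0136). These were 2 of the 8 genes, both higher, against 17.2% of all probe sets called in that comparison (adjusted p under 0.05 in limma), 9.31% higher and 7.94% lower. The median change of the 8 genes was 0.30, against -0.03 over all probe sets. Among all probe sets 4193 were called higher and 3575 lower, and after median centring of the arrays 5351 and 2402.

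The remaining genes did not pass the test in B6. Itgam had a change of 0.76 ± 0.32 (adjusted p = 0.101), Maf 0.32 ± 0.31 and Mertk 0.29 ± 0.35. For Spi1 the 95% interval of the change ran from -0.38 to 0.16, for Cebpb from -0.37 to 0.15 and for Adgre1 from -0.27 to 0.40. Changes of 2-fold, which is 1 on the log2 scale, thus lie outside the intervals of these 3 genes.

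The B6 calls rested on unstimulated arrays 2 and 3. Without array 2 the change of Cebpa was 0.96 (adjusted p = 0.0595) and without array 3 it was 0.99 (adjusted p = 0.0593). The main Fli1 probe set gave 1.18 (adjusted p = 0.0758) and 1.15 (adjusted p = 0.0811) in the same order, and the second 1.03 (adjusted p = 0.0758) and 0.95 (adjusted p = 0.0890). On the 20 arrays other than the 4 high ones, with B6 unstimulated array 1 alone as the control, Cebpa had a change of 0.31 ± 0.15 (adjusted p = 0.735) and Fli1 0.38 ± 0.33 (adjusted p = 0.834), and 0 of the 8 genes and 0% of all probe sets were called. Without B6 flagellin array 2, the array low in Maf and Itgam, 4 of the 8 genes were called (23.1% of all probe sets), now with Maf at 0.82 and Itgam at 1.15. Without B6 unstimulated array 1 there were 3 (25.3%), now with Itgam at 1.08. On the same contrast, where 9.31% of all probe sets were called higher and 7.94% lower, 0 of the 19 measured cytokine genes were called higher and 12 lower, with a median of -1.46. Of 18 interferon-stimulated genes 0 were higher and 18 lower, with a median of -2.07. Without the 4 high arrays 0 of either list were called, and the medians were -0.20 and -1.34, with 12 of the 18 interferon-stimulated genes at an unadjusted p under 0.05. A fit of the B6 arrays alone called 0, with adjusted p of 0.142 for Cebpa and 0.149 for Fli1.

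**Figure D3:**
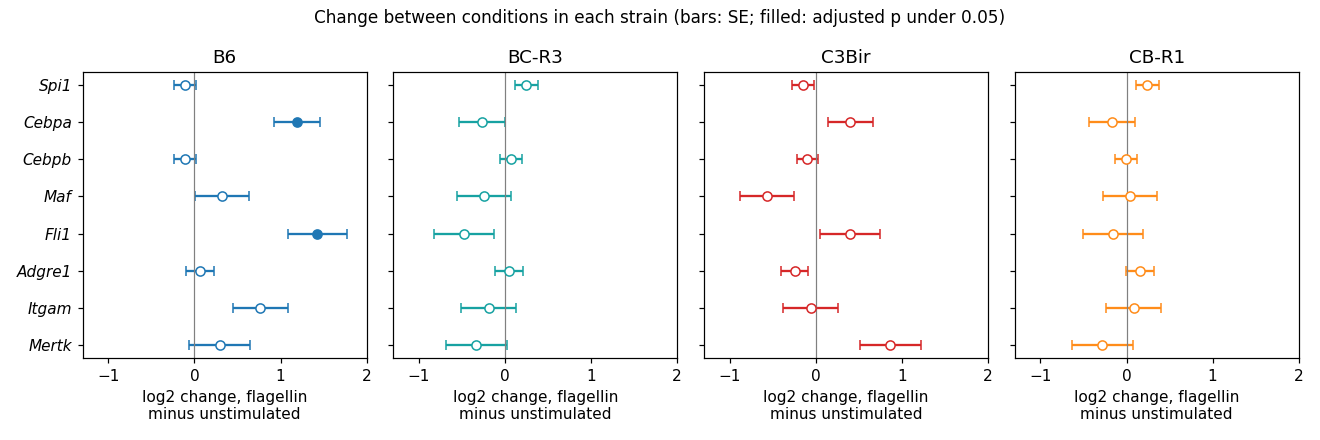
Log2 change between flagellin and unstimulated arrays (horizontal axes) of the main probe set of each gene (vertical axis) in the 4 strains, with bars of 1 SE and filled symbols for adjusted p under 0.05 (limma). Only Cebpa and Fli1 in B6 are filled, at 1.19 and 1.43.

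In the other 3 strains 0 of the 8 genes were called, and limma called 0% of all probe sets in each. At an unadjusted p under 0.05 C3Bir had 1 gene and either congenic strain 0, against 7.56% of all probe sets for C3Bir, 8.94% for BC-R3 and 3.19% for CB-R1. The gene in C3Bir was Mertk, at 0.86 ± 0.35 (adjusted p = 0.650). In BC-R3 and CB-R1 Cebpa had changes of -0.27 ± 0.27 and -0.17 ± 0.27, and Fli1 had changes of -0.48 ± 0.35 and -0.16 ± 0.35. Spi1 had 0.25 ± 0.13 and 0.24 ± 0.13 in these strains.

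These values turned on array 1 of the unstimulated groups. Leaving out only C3Bir unstimulated array 1 gave 1 called gene in C3Bir, Mertk at 1.48 (adjusted p = 0.0210), and leaving out only BC-R3 unstimulated array 1 gave 1 in BC-R3, Spi1 at 0.46 (adjusted p = 0.0401). Limma then called 0.349% and 0.562% of all probe sets. With that array number left aside among the unstimulated arrays of BC-R3, C3Bir and B6 together, 3 genes were called in C3Bir and 4 in BC-R3, and of all probe sets 4.17% and 3.22%. Mertk then changed by 1.48 ± 0.17 in C3Bir (adjusted p = 3.2e-05) and by -0.72 ± 0.17 in BC-R3 (adjusted p = 0.0235). Cebpa changed by 0.74 ± 0.08 in C3Bir and by -0.42 ± 0.08 in BC-R3, with adjusted p of 1.3e-05 and 0.00582. Those 3 arrays were left aside after seeing the data, so these p-values are not from a planned test. The exclusion also lowered the shared spread, from an SE of 0.35 for Mertk and 0.27 for Cebpa on all arrays. Against C3Bir unstimulated array 1 alone, with the 4 high arrays left aside, Mertk in C3Bir had -0.36 ± 0.35, the opposite sign on a control of 1 array. That array gave 9.68, and C3Bir flagellin array 1 gave 9.75.

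The flagellin change was then compared between strains. Between BC-R3 and B6 the change of Cebpa differed by -1.46 ± 0.38 (adjusted p = 0.0301), from 1.19 in B6 to -0.27 in BC-R3. The change of Fli1 differed by -1.91 ± 0.49 (adjusted p = 0.0300) and, by its second probe set, -1.35 ± 0.41 (adjusted p = 0.0494). These were 2 of the 8 genes, against 8.05% of all probe sets called and 4.74% called lower. Called probe sets divided into 1491 higher and 2133 lower, or 1111 and 2777 after median centring. Without the 4 high arrays, with 1 unstimulated array left in B6, the differences were -0.58 for Cebpa (adjusted p = 0.448) and -0.86 for Fli1 (adjusted p = 0.528), and 0% of all probe sets were called. The Cebpa call was also lost without any 1 of 7 arrays, which were B6 unstimulated 2 and 3, B6 flagellin 3, BC-R3 unstimulated 2 and 3 and BC-R3 flagellin 2 and 3, with values of -1.47 to -1.22. The Fli1 call was lost without any of these or B6 flagellin array 1, with values of -1.88 to -1.63. The second Fli1 probe set lost its call without any 1 of 19 arrays, at -1.36 to -1.15; B6 unstimulated 1, B6 flagellin 2, C3Bir unstimulated 1, C3Bir flagellin 1 and BC-R3 unstimulated 1 were the arrays without which it stayed. Without B6 flagellin array 2 the count of called genes was 4, against 15.1% of all probe sets. It was 3 without B6 unstimulated array 1 (18.8%) or BC-R3 unstimulated array 1 (17.3%).

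Between C3Bir and B6, and between CB-R1 and C3Bir, 0 of the 8 genes differed in their flagellin change, and limma called 0% of all probe sets. At an unadjusted p under 0.05 there were 2 genes in each, against 13.9% and 4.97% of all probe sets. In the first these were Cebpa, at -0.79 ± 0.38, and Fli1, at -1.04 ± 0.49. In the second they were Spi1, at 0.39 ± 0.18, and Mertk, at -1.15 ± 0.50. Both sets of values involve the 4 high arrays. With these left aside, and 1 unstimulated array each in B6 and C3Bir, the first pair had -0.59 ± 0.21 and -0.65 ± 0.47, and Mertk in that difference went from 0.57 ± 0.50 to -0.77 ± 0.49. The second pair had 0.17 ± 0.23 for Spi1 and 0.08 ± 0.43 for Mertk. Without B6 unstimulated array 1 both Cebpa, at -1.23 (adjusted p = 0.0116), and Fli1, at -1.56 (adjusted p = 0.0248), were called in the first, with 5.68% of all probe sets.

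The strains were compared within each condition. Without stimulation, BC-R3 exceeded B6 in 3 of the 8 genes, against 26.5% of all probe sets called and 15.3% called higher. Fli1 was 3.65-fold higher in BC-R3, 1.87 ± 0.35 on the log2 scale (adjusted p = 0.00145). Cebpa was 2.45-fold higher, 1.29 ± 0.27 (adjusted p = 0.00242), and Itgam 1.93-fold higher, 0.95 ± 0.32 (adjusted p = 0.0351). The median change of the 8 genes was 0.73 and that of all probe sets -0.03. Spi1 had a change of -0.35 ± 0.13 (adjusted p = 0.0533) and Maf 0.79 ± 0.31 (adjusted p = 0.0682). After quantile normalization limma called Spi1 lower in BC-R3, at -0.41 (adjusted p = 0.0159). Spi1 was also called with the filter on low values, with 1 probe set per gene, with the mean of probe sets and with the trend and robust options. The adjusted p was 0.0453 to 0.0482 in these.

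The Itgam call was lost without B6 unstimulated array 2, at 0.81, or 3, at 0.76, and without BC-R3 unstimulated array 2, at 0.89, or 3, at 0.90. The calls of Cebpa and Fli1 remained when each array was left out in turn. With the 4 high arrays left aside, B6 unstimulated array 1 was the only control, 0 genes and 0.00666% of all probe sets were called, and the changes were 0.41 ± 0.15 for Cebpa, 0.82 ± 0.33 for Fli1 and 0.31 ± 0.41 for Itgam. A fit of these 6 arrays alone called 0 as well, with adjusted p of 0.0723 for Cebpa and 0.0636 for Fli1. Without BC-R3 unstimulated array 1, 7 of the 8 genes were called, against 30.5% of all probe sets, with Spi1, at -0.56, and Cebpb, at -0.39, lower in BC-R3 and Maf, at 0.94, and Mertk, at 1.07, higher. Without B6 flagellin array 2 (29% of all probe sets) or C3Bir unstimulated array 1 (27.1%) the count was 5.

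C3Bir exceeded B6 without stimulation in 1 of the 8 genes, against 13.4% of all probe sets called and 8.08% called higher. This was Fli1, at 1.08 ± 0.35 (adjusted p = 0.0437) by its main probe set and 0.76 ± 0.29 (adjusted p = 0.0922) by its second. Cebpa had 0.81 ± 0.27 (adjusted p = 0.0503). Leaving out 1 array in turn ended the Fli1 call for 14 of 24 arrays, with values of 0.75 to 1.08, and the adjusted p then reached 0.237. These were B6 unstimulated 2 and 3, C3Bir unstimulated 1, C3Bir flagellin 3, BC-R3 unstimulated 2 and the 3 BC-R3 flagellin and 6 CB-R1 arrays. Cebpa passed the test without B6 unstimulated 1, C3Bir unstimulated 2 or 3 or BC-R3 unstimulated 1, at 0.81 to 1.25, and Maf without B6 flagellin 2, at 0.68. Without the 4 high arrays the comparison is of 1 array with 1 array, and Fli1 had 0.70 ± 0.41 (adjusted p = 0.595). The Fli1 call was also lost with the mean of its probe sets (0.92, adjusted p = 0.0519), with the trend and robust options (adjusted p = 0.0664) and in a fit of these 6 arrays alone (adjusted p = 0.231), where Maf was called instead (adjusted p = 0.00506). Mertk had -0.60 ± 0.35 (adjusted p = 0.306), with C3Bir arrays 2 and 3 below B6 and array 1 above, and without that array 1 it was called at -1.22 (adjusted p = 0.00492).

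CB-R1 and C3Bir without stimulation differed in 0 of the 8 genes, against 0.586% of all probe sets called by limma, and 5 genes had an unadjusted p under 0.05, against 14.9% of all probe sets. Mertk had 1.35 ± 0.35 (adjusted p = 0.0761), Cebpb -0.45 ± 0.13 (adjusted p = 0.0916) and Spi1 -0.43 ± 0.13 (adjusted p = 0.109). Cebpa and Adgre1 were the other two, at 0.59 ± 0.27 and -0.34 ± 0.16. Without C3Bir unstimulated array 1, 4 genes were called, Mertk at 1.96, Cebpa at 0.94, Cebpb at -0.60 and Spi1 at -0.54, against 6.37% of all probe sets. Without BC-R3 unstimulated array 1, which belongs to neither group but enters the shared spread, 3 were (2.14%). With the 4 high arrays left aside, and C3Bir unstimulated array 1 alone, Mertk had 0.12 ± 0.35, Cebpb -0.14 ± 0.16, Spi1 -0.21 ± 0.19 and, with the opposite sign, Cebpa -0.09 ± 0.15. Adgre1 had -0.36 ± 0.24 there.

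With flagellin, 0 of the 8 genes were called in any of the pairs of strains. Limma called 5.68% of all probe sets between C3Bir and B6, 0.0222% between BC-R3 and B6 and 0.0555% between CB-R1 and C3Bir. The 8 genes gave 1, 0 and 1 at an unadjusted p under 0.05 in these pairs, against 18.1%, 4.07% and 8.25% of all probe sets. Adgre1 had -0.42 ± 0.16 in C3Bir against B6 (adjusted p = 0.153), and Cebpb had -0.36 ± 0.13 in CB-R1 against C3Bir (adjusted p = 0.384). Between BC-R3 and B6, the 95% intervals were -0.26 to 0.28 for Spi1, -0.73 to 0.39 for Cebpa and -0.77 to 0.69 for Fli1. Without B6 flagellin array 2, Adgre1 was called between C3Bir and B6, at -0.57 (adjusted p = 0.0435). Without C3Bir flagellin array 1, Maf probe sets passed the test between CB-R1 and C3Bir, the second at 1.16 and the fifth at 1.56, while the main one did not.

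The background comparison set the 12 arrays of C3Bir and CB-R1 against the 12 of B6 and BC-R3. Adgre1 was 1.25-fold lower on the C3Bir background, -0.33 ± 0.08 on the log2 scale (adjusted p = 0.00504), with a median of 12.67 against 12.86. It was 1 of the 8 genes called through its main probe set, against 22.4% of all probe sets, 12.5% higher and 9.9% lower. The Adgre1 change remained called when each array was left out in turn, between -0.37 and -0.29, and without the 4 high arrays, at -0.37 ± 0.10 (adjusted p = 0.0178). Adgre1 had 1 probe set, so no second measurement of it was at hand. The neutrophil marker mean was 11.02 to 12.17 on the C3Bir background and 10.53 to 11.39 on the B6 background, and its part in the difference was not tested.

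A second Maf probe set was 1.33-fold higher on the C3Bir background, 0.41 ± 0.12 (adjusted p = 0.0159). The other 5 Maf probe sets had changes of 0.01 to 0.30 and none passed, so the probe sets of this gene differed. The CB-R1 arrays were high by this probe set, at 9.93 to 10.49, with 8.97 to 9.84 on the B6 background and 8.73 to 9.99 in C3Bir. Its adjusted p without the 4 high arrays was 0.0985, at 0.40 ± 0.16. In that setting Cebpa was called, at 0.23 ± 0.06 (adjusted p = 0.0165), having had 0.28 ± 0.13 (adjusted p = 0.147) on all arrays. Without B6 unstimulated array 1 alone, Cebpa, at 0.39 (adjusted p = 0.00382), and Fli1, at 0.43 (adjusted p = 0.0244), were also called. Spi1 was called at -0.19 when B6 flagellin array 2, BC-R3 unstimulated array 2 or BC-R3 unstimulated array 3 was left out. The share of all probe sets called in these fits is not given here.

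By the origin of Cdcs1, the 12 arrays of C3Bir and BC-R3 against the 12 of B6 and CB-R1, 0 of the 8 genes and 0 of the 15 probe sets were called by limma, against 1.32% of all probe sets. At an unadjusted p under 0.05 there were 0 genes by their main probe sets and 2 probe sets, both of Maf, against 16.2% of all probe sets. These had -0.48 ± 0.15 (adjusted p = 0.103) and -0.33 ± 0.12 (adjusted p = 0.158), while the main Maf probe set had 0.17 ± 0.16. Without C3Bir flagellin array 1 both were called, at -0.58 (adjusted p = 0.0286) and -0.42 (adjusted p = 0.0369). None of the 8 genes lies on chromosome 3, where Cdcs1 is.

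**Figure D4:**
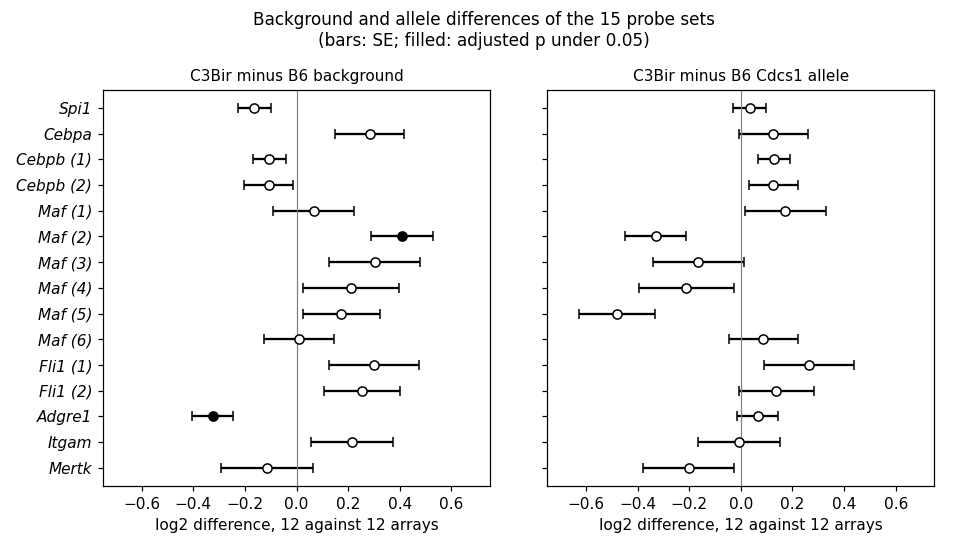
Log2 difference (horizontal axes) between 12 and 12 arrays for the 15 probe sets (vertical axis, numbered within a gene by falling mean), by background on the left and by Cdcs1 allele on the right, with bars of 1 SE and filled symbols for adjusted p under 0.05 (limma). Adgre1, at -0.33, and the second Maf probe set, at 0.41, are filled on the left and none on the right.

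The 8 genes were also set beside each other over the 24 arrays, as a description with no test, since these arrays share groups and the 4 high arrays. Cebpa and Fli1 correlated at r = 0.95, and at 0.73 over the 20 arrays other than the 4 high ones. Spi1 and Cebpb correlated at 0.81 and 0.78 in the same order. Cebpa and Spi1 ran in opposite directions, at -0.61 and -0.84, as did Mertk and Cebpb, at -0.80 and -0.74. Maf and Itgam correlated at 0.74 and 0.86, so this pair did not rest on the 4 high arrays. Mertk and Cebpa rose from 0.58 over 24 arrays to 0.83 over 20.

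**Figure D5:**
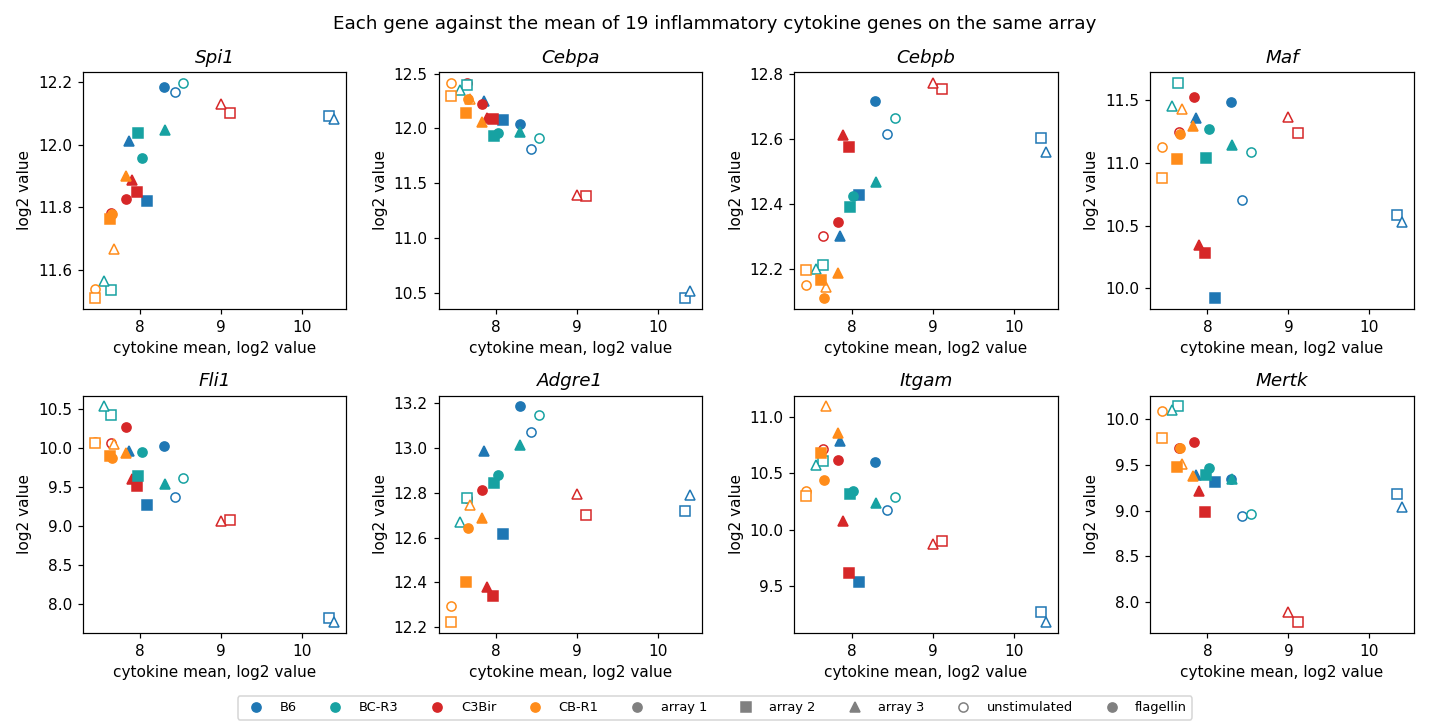
Log2 value of each gene (vertical axes) against the mean log2 value of 19 inflammatory cytokine genes (horizontal axes) on each of the 24 arrays; colours give the strain, symbols the array number, and open symbols are unstimulated. The 4 arrays with a cytokine mean of 9.0 or more have the 4 lowest values of Cebpa and of Fli1.

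Genes outside the set with the most similar profile were found over the main probe sets of all genes. Cxcr4 ran closest to Cebpa, at r = 0.98 over 24 arrays and 0.82 over the 20, and Pcyox1 closest to Fli1, at 0.98 and 0.90. Vasp ran closest to Spi1, at 0.97 and 0.97, and Capza2 closest to Adgre1, at 0.96 and 0.97. Gpr132 was closest to Cebpb at 0.93 and 0.91, Metrn to Itgam at 0.93 and 0.87, Cradd to Mertk at 0.89 and 0.82, and Zbtb12 to Maf at 0.80 and 0.82. The count of genes with r over 0.9 on 24 arrays was 252 for Cebpa and 291 for Fli1, but 38 for Spi1, 10 for Itgam, 8 for Cebpb, 5 for Adgre1, and 0 for Maf and Mertk. These counts include the 4 high arrays and were not taken over the 20. Over the 20, the 3 closest genes had r of 0.80 to 0.82 for Cebpa, 0.85 to 0.90 for Fli1 and 0.95 to 0.97 for Spi1.

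Further lists gave the surroundings of these genes. Of 28 other myeloid transcription factors, 26 were measured. With flagellin in B6, 6 were called higher and 5 lower, where 9.31% and 7.94% of all probe sets were. Without the unstimulated arrays numbered 1 of B6, C3Bir and BC-R3 the counts were 8 and 6, where 28.1% of all probe sets were called. Pparg, a nuclear receptor of lipid metabolism, rose by 1.10 ± 0.23 (adjusted p = 0.00519), and Tfec, a macrophage-restricted relative of Mitf, fell by 1.40 ± 0.32 (adjusted p = 0.00833). Gfi1, a zinc-finger repressor, fell by 1.02 ± 0.23 (adjusted p = 0.00708). The median of the list was -0.04, near the -0.03 of all probe sets, and without the 4 high arrays, on 1 control array, 0 were called.

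Between backgrounds, 9 of these factors were higher and 7 lower on the C3Bir side, where 12.5% of all probe sets were higher and 9.9% lower, and without the 4 high arrays the counts were 8 and 8. Tfec, at -1.14 ± 0.16 (adjusted p = 1.8e-05), and Runx1, a factor of blood stem cells, at -1.14 ± 0.13 (adjusted p = 1.7e-06), were lower. Irf4, an interferon-regulatory factor of alternatively activated macrophages, was higher by 0.81 ± 0.06 (adjusted p = 5.8e-09). The list's median was -0.04 and that of all probe sets 0.01.

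Of 24 other macrophage markers, all measured, 5 were higher and 0 lower with flagellin in B6, where 9.31% of all probe sets were higher and 7.94% lower. Among them were the chemokine receptor Cx3cr1, at 1.38 ± 0.46 (adjusted p = 0.0449), and Csf2ra, a receptor chain for GM-CSF, at 0.56 ± 0.17 (adjusted p = 0.0271). Their median was 0.12. Without the 4 high arrays, on 1 control array, the median was -0.01. Without the arrays numbered 1 it was 0.18, with 7 higher and 2 lower, in a fit where the share of all probe sets called rose as well. Between backgrounds 5 were higher and 3 lower, where 12.5% and 9.9% of all probe sets were. Itgax, the integrin chain of dendritic cells and some macrophages, was higher on the C3Bir background by 1.12 ± 0.11 (adjusted p = 1.6e-07), and Itgal, another integrin alpha chain, was lower by a change of -0.71 ± 0.18 (adjusted p = 0.00686).

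Of 24 genes of the MERTK pathway and of dead-cell uptake, all measured, 0 were higher and 2 lower with flagellin in B6, where 9.31% and 7.94% of all probe sets were. These were Gulp1, an engulfment adaptor, at -0.35 ± 0.10 and the integrin chain Itgav at -0.33 ± 0.10. The list's median was 0.11. Leaving aside the 4 high arrays, on 1 control array, gave a median of -0.004. Leaving aside the arrays numbered 1 gave 8 higher and 3 lower, with a median of 0.19. The share of all probe sets called rose in that fit as well, as given above for the other transcription factors. Between backgrounds 4 were higher and 8 lower on the C3Bir side, where 12.5% and 9.9% of all probe sets were, with the same counts without the 4 high arrays. Pros1, which encodes the MERTK ligand protein S, was higher by 0.57 ± 0.06 (adjusted p = 4.8e-07). Thbs1, thrombospondin, had -1.24 ± 0.15 (adjusted p = 1.6e-06), and the complement genes C1qb and C1qa had -0.99 ± 0.10 (adjusted p = 2.9e-07) and -0.71 ± 0.12 (adjusted p = 0.000117). Mertk itself had -0.11 ± 0.18 in that comparison (adjusted p = 0.719).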

How the data were processed

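Array data of 24 RNA samples were analysed. The authors deposited them as 1 log2 table, 45037 probe sets by 24 arrays; the summarisation and normalization behind them are not given in the sources used here. Values were used as deposited; 4 probe sets without values were left out. Of the 45033 used, 34944 had 1 symbol in the platform annotation, 931 several and 9158 none.

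All arrays entered 1 fit of 8 group means with limma 3.58.1 in R 4.3.3 (16 residual and 4.02 prior degrees of freedom). The 15 contrasts were tested two-sided, with Benjamini-Hochberg adjustment over all probe sets within a contrast; adjusted p under 0.05 was called. The fit was tested on simulated data. Per other list, up to 4 called genes with the largest change were eligible for naming; likeness used Pearson's r over 24 arrays.

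The members and lists were chosen with earlier results of these data known. Labels do not tie array numbers to mice, so the spread that p-values measure is between arrays and may be technical. Their number limits the precision. Alternatives were median centring, quantile normalization, a filter on mean log2 values under 6, probe set choices, variance options, fits of the compared groups, replicate blocks and leaving out arrays. Leaving aside the 4 high arrays, or 3 arrays numbered 1, was chosen after seeing the data.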

Additional observations from a re-analysis of the deposited data

Results flagged for a closer look

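The flagellin change of BC-R3 differed from that of B6 by the test of the difference itself. The difference was -1.46 on the log2 scale for Cebpa, -1.91 for the main Fli1 probe set and -1.35 for the second. In B6 the changes were 1.19, 1.43 and 1.15, and in BC-R3 -0.27, -0.48 and -0.20. The cytokine mean was 10.34 and 10.40 on B6 unstimulated arrays 2 and 3, and without the 4 high arrays the differences were -0.58, -0.86 and -0.72. B6 then has 1 unstimulated array, with the spread taken from other groups, and none of the 3 was called.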

How the results depend on the processing

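The 13 called changes of single probe sets kept their sign under each alternative run, while 90 of the 212 changes that were not called changed sign under at least 1. Called changes are large against their SE by the rule of the call, so their steadier sign follows in part from that rule. Counts of called genes out of 8 moved as follows, and the share of all probe sets called moved with the arrays kept as well. In the main fit that share was 17.2% for flagellin in B6, 13.4% for C3Bir and 26.5% for BC-R3 against B6 unstimulated. It was 22.4% for the background and 8.05% for the difference of the flagellin change between BC-R3 and B6. A count without the share of its own fit describes that fit and not the 8 genes alone. For flagellin in B6 the count was 2, and 0 in a fit of the compared groups alone and without the 4 high arrays. For C3Bir against B6 unstimulated it was 1, and 2 with the filter on low values, with 1 probe set per gene and with the replicate block as a fixed term, 0 with the trend and robust options and without the 4 high arrays, and 3 without the 3 arrays numbered 1. It also was 1 in the fit of the compared groups and with the mean of probe sets, but the gene called was then Maf and Cebpa, not Fli1. For BC-R3 against B6 unstimulated it was 3, and 0 in the fit of those groups alone and without the 4 high arrays, and 6 without the arrays numbered 1. For the background it was 1, and 2 and 4 under these exclusions. For the difference of the flagellin change between BC-R3 and B6 it was 2, and 1 after quantile normalization, 0 in the fit of those groups alone and without the 4 high arrays, and 5 without the arrays numbered 1. Without the arrays numbered 1 the count also rose from 0 to 3 for flagellin in C3Bir, 4 for flagellin in BC-R3, 5 for CB-R1 against C3Bir unstimulated, 3 for the allele, and 3 each for the differences of the flagellin change of C3Bir and B6 and of CB-R1 and C3Bir, where the share of all probe sets called was 4.17%, 3.22%, 10.1%, 9.2%, 6.07% and 2.69%. Without the 4 high arrays, unstimulated B6 and C3Bir have 1 array each, assumed to vary like the other groups. The arrays numbered 1 were left aside after seeing the data, and this lowered the SE of Mertk and Cebpa. Apart from the smaller number of samples in these fits, the cause was not tested. For BC-R3 against B6 unstimulated the count also reached 4 in alternatives on all arrays, where Spi1 was called.

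Leaving out 1 array in turn gave 0 to 4 genes for flagellin in B6 and 0 to 1 in C3Bir and in BC-R3. For C3Bir against B6 it gave 0 to 2 unstimulated and 0 to 1 with flagellin. Unstimulated, it gave 2 to 7 for BC-R3 against B6 and 0 to 4 for CB-R1 against C3Bir. The background gave 1 to 3. The differences of the flagellin change of C3Bir and of BC-R3 from B6 gave 0 to 2 and 0 to 4. The other 5 comparisons gave 0 to 0. The share of all probe sets called moved with the array left out, so these counts describe the fits and not the member genes alone.

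The labels do not say whether equal array numbers pair the arrays, and the main fit did not pair them. Of 12 pairs of same-numbered arrays in a strain, 8 had deviations that correlated over 0.1, with a range of -0.44 to 0.50. In C3Bir (0.45, 0.29 and 0.33) and CB-R1 (0.34, 0.22 and 0.50) every unstimulated array correlated best with the flagellin array of its own number. In B6 and BC-R3 only array 2 did, at 0.12 and 0.24. With the replicate block as a fixed term, the second Fli1 probe set had an adjusted p of 0.0510 for the difference between BC-R3 and B6. Apart from leaving out arrays, that call held in 3 of 7 alternatives. For the same difference the call of the main Fli1 probe set held in 8 of 9. The call of Cebpa held in 7 of 9, and quantile normalization was among the settings that ended it. As a random block, with a correlation of 0.0837, the replicate number moved no count by over 1.5 times. The log2 values carry no detection call, so levels near the lower quartile, at most 5.42, could not be told from background; the lowest member value was 6.18.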
